A study of Mus musculus with 8 samples.

Results

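The 10 cytokine genes of conventional (effector) T cells examined here were Il2, Ifng, Il4, Il5, Il13, Il17a, Il21, Cd40lg, Tnf and Csf2. The genes were chosen by name, with earlier results of these data known. A Foxp3 binding site counted as theirs when its centre fell within the gene or 5 kb of it. If several genes qualified, one holding the centre came first, then the shortest. Failing any such gene, the site went to the nearest protein-coding gene end within 100 kb. By this rule 10 of the 5521 listed sites belonged to 4 of the 10 genes, with 4 sites at Ifng, 3 at Cd40lg, 2 at Il2 and 1 at Il21. No site was given to the other 6 genes, Il4, Il5, Il13, Il17a, Tnf and Csf2. Over the whole series, 5210 sites were given to 2760 genes.

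Binding of Foxp3 was read by CUT&Tag, in which an antibody directs the transposase pAG-Tn5 to cut and tag the DNA around its target. The cells were regulatory T (Treg) cells sorted as CD4+hCD2+GFP- from C57BL6/J mice (lymph nodes and spleen), with no age in the labels. WT cells had the genotype Foxp3WT-IRES-hCD2/Foxp3-IRES-GFP and R397W cells Foxp3R397W-IRES-hCD2/Foxp3-IRES-GFP. Both groups thus also carried a Foxp3 allele with a GFP reporter, and the sort kept cells with the hCD2 reporter and without GFP. R397W is a missense change in the forkhead domain, the part of Foxp3 that contacts DNA. Each genotype had 2 libraries made with an in-house rabbit anti-Foxp3 antibody and 2 made with normal rabbit IgG, which measure background. The labels do not say whether replicates came from separate mice, so p-values measure the spread between these libraries, which may be technical.

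The values are the deposited normalised read counts per site, in 3 classes set by the authors, common, cTreg-specific and eTreg-specific (eTreg stands for effector Treg). Each class was scaled separately, so levels of common and eTreg-specific sites are not on 1 scale. Libraries held between 111274 and 394196 reads over these sites. In the replicates numbered 2, 44.4% to 66.8% of all sites had no reads, against 3.13% to 27.0% in those numbered 1. A site was listed at 5 of 6 Treg marker genes (Foxp3, Il2ra, Ctla4, Ikzf2 and Ikzf4, but not Tnfrsf18), at 0 of 5 B cell genes, 0 of 5 myeloid genes and 2 of 6 CD8 T and NK cell genes, which counts binding and not expression.

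Conventional T cells make these cytokines after activation through the T cell receptor, largely through NFAT, AP-1 and NF-kB. Treg cells make little of most of them, and Foxp3 is known to repress Il2 and Ifng and to act together with NFAT. Il2 encodes the T cell growth factor that Treg cells consume, Ifng the T helper 1 cytokine interferon gamma, Il21 a cytokine that helps B cells, and Cd40lg the surface ligand that activates B cells and dendritic cells through CD40.

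Of the 10 sites, 1 lay at a promoter. The eTreg-specific site of Il2 (mm10, chromosome 3, 37126131 to 37126531) was centred 377 bp upstream of the Il2 start site. It covered the distal 74 bases of the promoter window, which runs from 250 bases before the start to 50 after it. Over all 5521 sites, 9.69% overlapped such a window of some gene. The Il2 window is shown because no other promoter window of these genes was touched by a site, with the stretch inside the site in capitals. The window of Ltb, the lymphotoxin beta gene near Tnf, is shown because the site nearest to Tnf contained it whole, with a forkhead match, read on the other strand, in capitals. Both are from RefSeq, GRCm38.p6, printed 5′ to 3′.
Il2 (chr3:37125905-37126204, minus strand): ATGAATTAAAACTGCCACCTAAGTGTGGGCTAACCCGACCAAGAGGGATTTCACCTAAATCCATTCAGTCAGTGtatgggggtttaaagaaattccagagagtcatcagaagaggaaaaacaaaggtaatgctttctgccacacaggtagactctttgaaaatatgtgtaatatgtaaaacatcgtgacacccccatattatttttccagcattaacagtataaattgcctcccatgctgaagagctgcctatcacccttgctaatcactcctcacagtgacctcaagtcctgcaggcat
Ltb (chr17:35194257-35194556, plus strand): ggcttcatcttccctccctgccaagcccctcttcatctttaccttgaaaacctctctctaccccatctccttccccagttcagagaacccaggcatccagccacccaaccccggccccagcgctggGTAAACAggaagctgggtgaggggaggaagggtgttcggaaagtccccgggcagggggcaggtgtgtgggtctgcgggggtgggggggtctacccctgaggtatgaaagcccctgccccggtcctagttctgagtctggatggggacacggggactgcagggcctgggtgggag
The promoter table held 10 windows for 9 of the 10 genes, 2 of them for Il4, and none was used for Cd40lg. Searched on both strands, the forkhead motif TGTTTAC was in 0 of these 10 windows and in 3.65% of all 32817 windows. The AP-1 motif TGANTCA was in 1 of the 10, that of Il17a, against 7.81% of all. The NFAT core GGAAA was in 9 of the 10, all but that of Il17a, against 61.3%. In the Il2 window both matches to GGAAA lay outside the stretch that the site covered. A match says only that these letters are present, and its absence only that they are not in this window.

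The other sites of these genes were distal or flanking. None of the 10 lay inside a gene body, whereas 67.3% of all sites with a gene did, and 8 of the 10 were more than 10 kb from the gene, against 17.8%. By class, 8 were common, 2 eTreg-specific (1 at Il2 and 1 at Ifng) and 0 cTreg-specific, against 69.7%, 17.2% and 13.2% of all sites. These shares describe the list and were not tested.

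**Figure D1:**
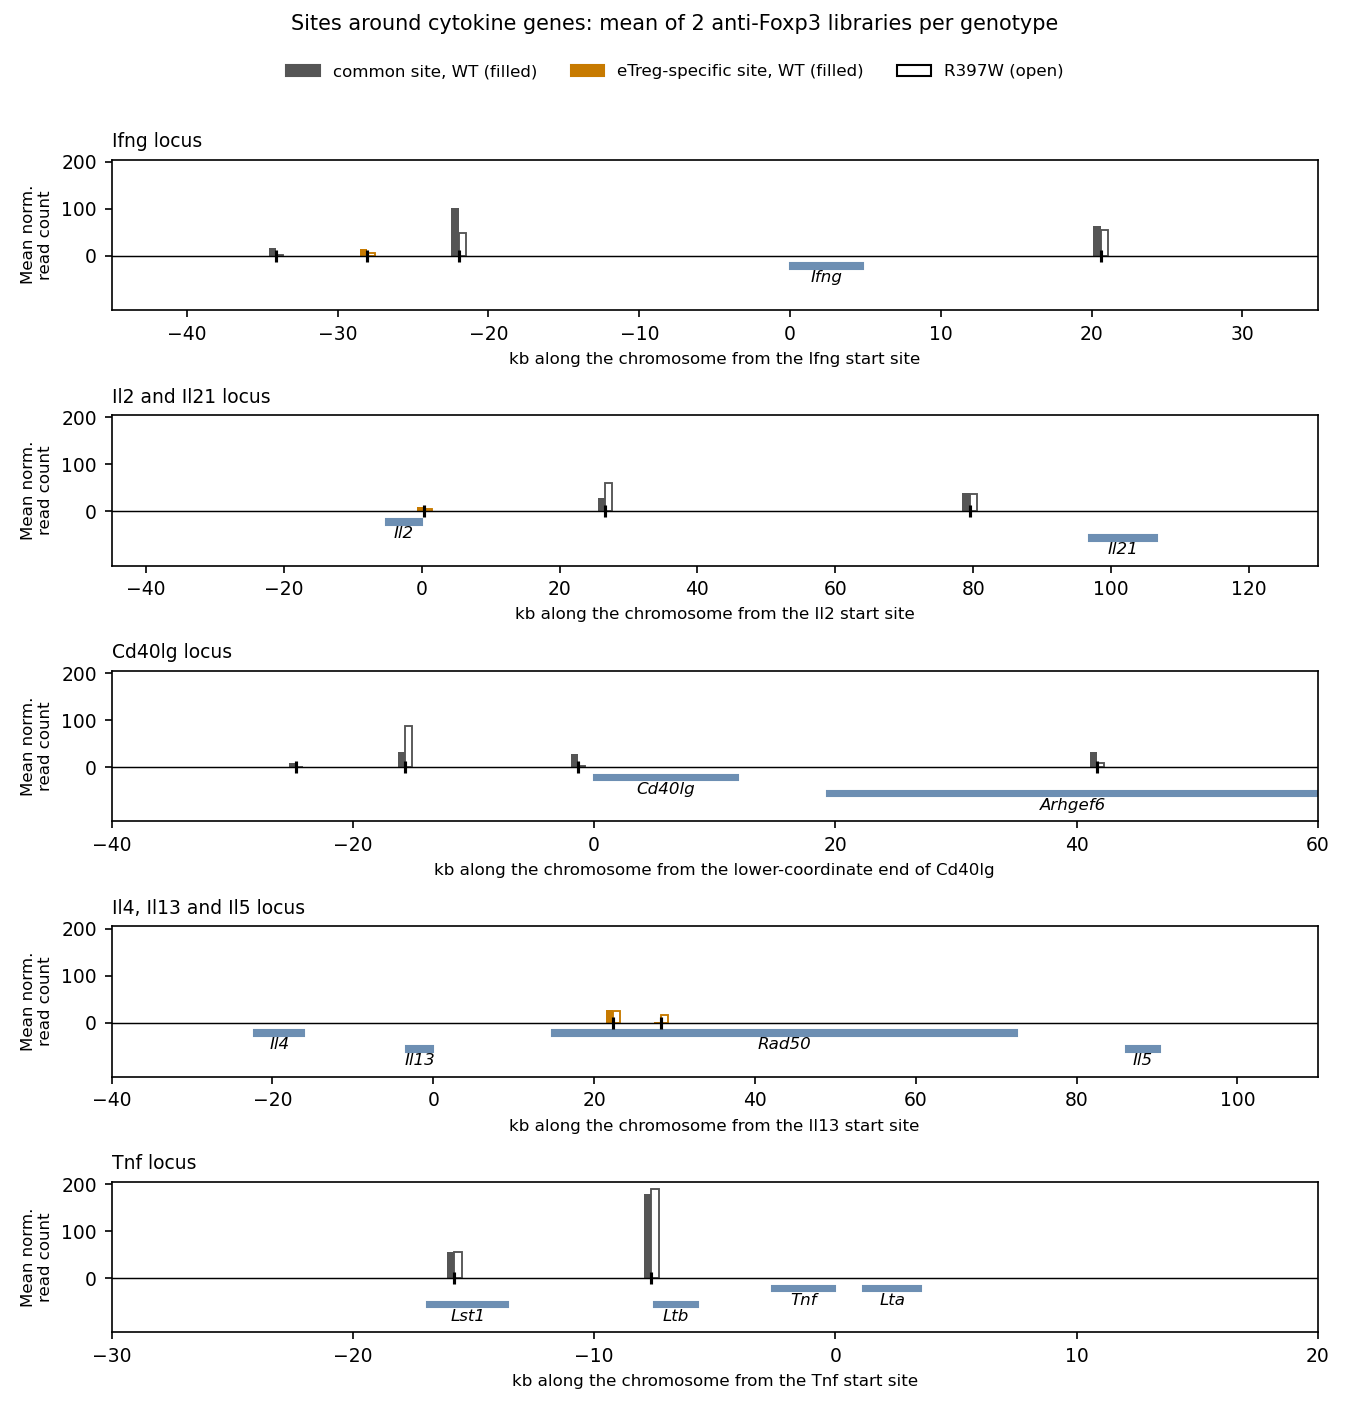
Mean normalised read count of the 2 anti-Foxp3 libraries per genotype (y axis; filled bars WT, open bars R397W) at sites around the cytokine genes, against distance in kb along the chromosome (x axis), with gene bodies as blue boxes. The tallest bars, above 100 in both genotypes, stand at Ltb near Tnf, and no site lies inside a cytokine gene. IgG is not drawn, and at Ltb Foxp3 exceeded same-numbered IgG only in the replicates numbered 2. Common and eTreg-specific sites were scaled separately, so their bars are not comparable in height.

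By the WT Foxp3 mean, the 2 highest of the cytokine sites were at Ifng, while in R397W Foxp3 the means of a Cd40lg site (87.98) and an Il2 site (60.4) were higher. Its 4 sites were centred 34093, 28037 and 21977 bp upstream and 20591 bp downstream of the Ifng start site (chromosome 10, beginning at 118406753, 118412809, 118418869 and 118461437, each with its end 400 bp further on). Distal elements on both sides of Ifng are known as enhancers in T helper 1 cells. In WT cells, the common site 21977 bp upstream had normalised read counts of 101.9 and 101.5 for anti-Foxp3 (replicates 1 and 2) and of 78.6 and 9.45 for IgG. In R397W cells it had 65.6 and 32.2 for anti-Foxp3 and 74.7 and 24.2 for IgG. Both WT Foxp3 libraries were above both R397W Foxp3 libraries and above both WT IgG libraries, while Foxp3 and IgG overlapped in R397W.

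The WT Foxp3 mean at this site was 101.7 ± 0.261 (SD, n = 2), above 85.8% of the common sites, and the R397W Foxp3 mean was 48.9 ± 23.6 (SD, n = 2). The fitted R397W minus WT difference in log2(normalised read count + 1) was −1.13 (SE 0.87; limma, adjusted p = 1 over all sites), and it turned to 0.57 with libraries centred on their common-site medians. Such a median counts empty sites, so centring takes less from sparse libraries than from well covered ones. Sign changes under centring therefore cannot be told apart from uneven coverage. This Ifng site was the only cytokine site at which the genotypes did not overlap in the Foxp3 libraries. R397W was lower without overlap at 1 of the 10 sites against 12.6% of all sites, and higher without overlap at 0 against 6.43%. An exact permutation test of 2 against 2 cannot give a p below 0.33. In recovered whole reads the site had 84 and 218 in WT Foxp3 and 25 and 50 in R397W Foxp3.

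The common site 20591 bp downstream of the Ifng start had values of 58.2 and 68.0 for anti-Foxp3 and 30.4 and 0.498 for IgG in WT cells. In R397W cells it had 76.1 and 32.2 for anti-Foxp3 and 40.7 and 16.5 for IgG. The genotypes overlapped in the Foxp3 libraries, and Foxp3 exceeded the IgG library of the same number in all 4 pairs. The excess was 1.91-fold in replicate 1 of WT and 1.87-fold and 1.95-fold in replicates 1 and 2 of R397W, and WT IgG replicate 2 held a single read. The fitted R397W minus WT difference was −0.34 on the log2 scale (SE 0.99; limma, adjusted p = 1), and 1.36 after the same centring. These 2 Ifng sites were the only cytokine sites with reads in all 8 libraries, which 17.0% of all sites had.

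The other Ifng sites were weak and unevenly covered. The eTreg-specific site 28037 bp upstream had 21.7 and 5.76 for anti-Foxp3 and 0 in both IgG libraries in WT cells, and 12.6 and 0 for anti-Foxp3 and 4.96 and 0 for IgG in R397W cells. It stood above IgG without overlap in WT, and by its WT mean it was above 38.8% of the eTreg-specific sites. The fitted genotype difference was −1.75 (SE 3.58; limma, adjusted p = 1). The common site 34093 bp upstream had 35.2 and 0 for anti-Foxp3 and 18.5 and 0 for IgG in WT cells, and 5.25 and 0 for anti-Foxp3 and 0 in both IgG libraries in R397W cells. All of its reads were in replicates numbered 1, and its fitted difference was −1.27 (SE 2.98; limma, adjusted p = 1), or 0.43 after centring.

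**Figure D2:**
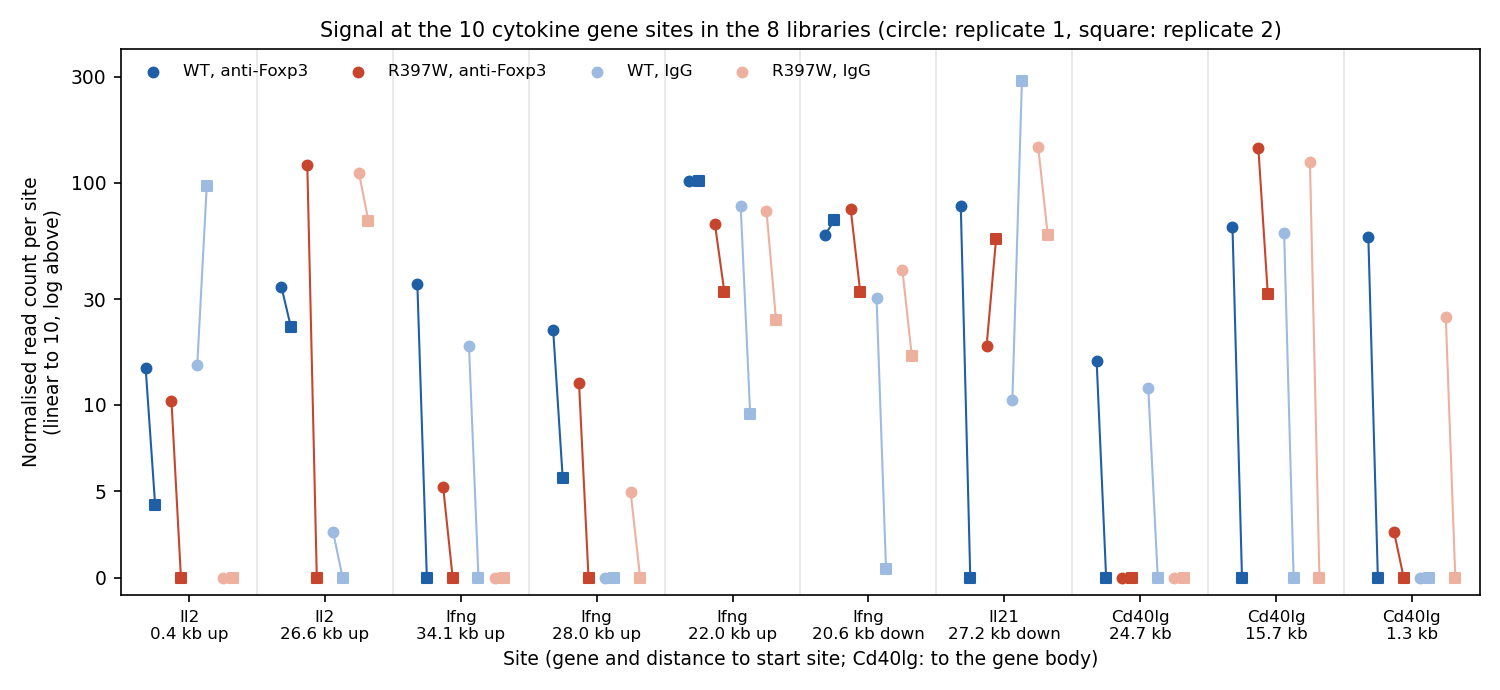
Normalised read count (y axis, linear to 10 and logarithmic above) at the 10 cytokine gene sites (x axis), with circles for replicate 1 and squares for replicate 2 of each of the 4 groups. The Ifng sites 21977 bp upstream and 20591 bp downstream are above 0 in all 8 libraries, while each other site is at 0 in at least 1.

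Il2 and Il21 are neighbours on chromosome 3, and 3 sites lay in their region. The Il2 promoter site had 14.7 and 4.22 for anti-Foxp3 and 15.1 and 97.4 for IgG in WT cells. In R397W cells it had 10.5 and 0 for anti-Foxp3 and 0 in both IgG libraries. Both WT IgG libraries exceeded both WT Foxp3 libraries, so the site did not stand above background in WT. The IgG value of 97.4 came from 179 reads in 1 library, against 11 reads in WT Foxp3 replicate 2. The fitted R397W minus WT difference was −1.42 (SE 3.41; limma, adjusted p = 1), and 0.27 after centring.

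The common Il2 site 26574 bp upstream (chromosome 3, 37152328 to 37152728) had 33.96 and 22.3 for anti-Foxp3 and 2.64 and 0 for IgG in WT cells. In R397W cells it had 120.8 and 0 for anti-Foxp3 and 110.9 and 67.5 for IgG. In WT the Foxp3 libraries were above IgG without overlap, while in R397W the replicate 1 libraries were close (a ratio of 1.09) and in replicate 2 IgG alone had reads. The fitted genotype difference in Foxp3 over IgG was −6.89 on the log2 scale (SE 4.27), which did not pass (limma, adjusted p = 0.9997). R397W minus WT was 5.52 (SE 3.02; limma, adjusted p = 1) in the IgG libraries and −1.37 (SE 2.88; limma, adjusted p = 1) in the Foxp3 libraries. The Foxp3 difference was 0.32 after centring and 1.09 in both edgeR and DESeq2.

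The common site of Il21 (chromosome 3, 37205242 to 37205642) lay between the genes, 27194 bp downstream of the Il21 start and 17317 bp past the end of Il21. It had 78.8 and 0 for anti-Foxp3 and 10.6 and 288 for IgG in WT cells. In R397W cells it had 18.4 and 56.1 for anti-Foxp3 and 144.9 and 58.5 for IgG. Both R397W IgG libraries exceeded both R397W Foxp3 libraries. The WT IgG value of 288, from 578 reads, was the highest of any library at the 10 sites, and the Foxp3 library of that number had 0. The fitted R397W minus WT difference was 1.90 (SE 2.84; limma, adjusted p = 1), and −0.07 in edgeR and DESeq2.

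The 3 sites of Cd40lg were all common and lay on 1 side of the gene, 24699, 15678 and 1317 bp from its lower-coordinate end (chromosome X, beginning at 57187244, 57196265 and 57210626, each with its end 400 bp further on). The middle site had 63.1 and 0 for anti-Foxp3 and 59.5 and 0 for IgG in WT cells, and 144 and 31.6 for anti-Foxp3 and 124 and 0 for IgG in R397W cells. In the replicates numbered 1, Foxp3 was 1.06 times IgG in WT and 1.16 times IgG in R397W, so nearly the same value was present in IgG. The fitted R397W minus WT difference was 3.10 (SE 2.46; limma, adjusted p = 1), and it was above 0 in all 12 alternatives, from 0.10 to 6.11.

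The Cd40lg site nearest to the gene had 57.0 and 0 for anti-Foxp3 and 0 in both IgG libraries in WT cells, and 2.63 and 0 for anti-Foxp3 and 24.9 and 0 for IgG in R397W cells. Its 47 reads in WT Foxp3 replicate 1 faced 0 in WT IgG, and the fitted genotype difference was −2 (SE 2.99; limma, adjusted p = 1). The farthest site had 15.8 in WT Foxp3 replicate 1 and 11.9 in WT IgG replicate 1, and 0 in the other 6 libraries. Its fitted difference of −2.03 (SE 1.504; limma, adjusted p = 1) rested on 13 reads in 1 Foxp3 library and is no bound, since both R397W libraries were at 0. Without WT Foxp3 replicate 2 it was −4.07, and without WT Foxp3 replicate 1 it was 0. Each of these fits sets a single WT library against the R397W pair, both at 0 here. The spread then rests on that pair and on a trend over all sites, and the lone WT library is assumed to vary likewise.

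Foxp3 was set against IgG to ask how far the cytokine sites stood above background. In WT, Foxp3 exceeded IgG without overlap at 4 of the 10 sites (3 at Ifng and the distal Il2 site) against 19.5% of all sites, and lay below IgG without overlap at the Il2 promoter site alone, against 4.84%. In R397W, Foxp3 exceeded IgG without overlap at 0 of the 10 against 10.4% of all sites, and lay below at 1, the Il21 site, against 7.84%. Matched by number, Foxp3 was above IgG in both replicates at 4 of the 10 sites in WT (31.0% of all sites) and at 2 in R397W (16.0%). Those of R397W were the downstream Ifng site and the middle Cd40lg site.

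Limma called 0 cytokine sites in either genotype, against 0.0725% of all sites in WT and 0.0% in R397W, and 0 of the 10 had an unadjusted p under 0.05, where 142 of all 5521 sites did in WT and 81 in R397W. The edgeR and DESeq2 tests on recovered reads called 0 of the 10 in both genotypes, and 0.0% of all sites. The fitted Foxp3 minus IgG value was below 0 at 2 of the 10 sites in WT (24.0% of all sites) and at 3 in R397W (43.6%). The test of whether Foxp3 over IgG differed by genotype called 0 of the 10 (0.0% of all sites; limma, lowest unadjusted p among the 10 = 0.106). In the IgG libraries alone, R397W against WT called 0 of the 10, against 0.0362% of all sites (limma).

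The median Foxp3 minus IgG difference over the 10 sites was 1.14 on the log2 scale in WT and 0.35 in R397W, beside 1.27 and 0.05 over all sites. Centring on the common-site medians turned the WT medians to −0.95 for the 10 sites and −0.82 for all sites. Sparse libraries such as WT IgG replicate 2 (66.8% of all sites without reads) have low common-site medians. This turn therefore cannot be told apart from uneven coverage. When WT Foxp3 replicate 1 was left out the WT median of the 10 sites became −0.92, and when replicate 2 was left out it became 3.04. Leaving out WT IgG replicate 1 gave 2.97, and leaving out replicate 2 gave −0.0033. The R397W median became −0.20 or 1.06 on leaving out R397W Foxp3 replicate 1 or 2, and 1.13 or −0.69 on leaving out R397W IgG replicate 1 or 2. The sign of either median thus turned on 1 library.

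Foxp3 libraries of R397W and WT cells were then compared to ask whether occupancy at cytokine genes differed between the alleles. The fitted value was lower in R397W at 8 of the 10 sites, against 60.4% of all sites, and higher at the Il21 site and the middle Cd40lg site. Centring left 3 of the 10 lower, against 27.1% of all sites. None of the 10 passed (0.0% of all sites called; limma, adjusted p = 1 for each), and 0 had an unadjusted p under 0.05, where 18 of all sites did. The edgeR and DESeq2 tests also called 0 of the 10 and 0.0% of all sites tested, where 40 and 60 sites had an unadjusted p under 0.05. The median difference over the 10 sites was −1.32 on the log2 scale, beside −0.39 over all sites, and centring moved these to 0.37 and 1.30. Leaving out R397W Foxp3 replicate 1 or 2 gave a median of −2.31 or 0.20 for the 10 sites, and leaving out WT Foxp3 replicate 1 or 2 gave −0.22 or −1.94.

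**Figure D3:**
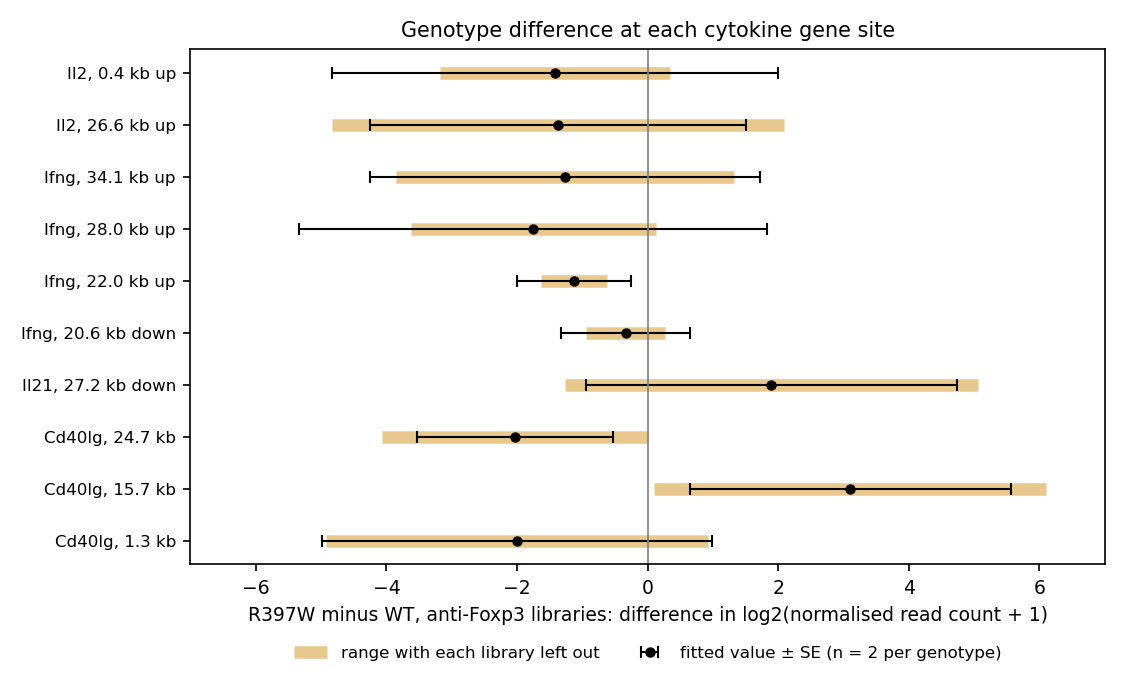
R397W minus WT difference in log2(normalised read count + 1) in the anti-Foxp3 libraries (x axis) at each cytokine gene site (y axis), with points and SE from limma and shaded bars for the range with each library left out in turn. The range keeps 1 sign at the Ifng site 21977 bp upstream and the Cd40lg site 15678 bp away, ends at 0 at the Cd40lg site 24699 bp away, and crosses 0 at the other 7.

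The share of a library's recovered reads that fell in the 10 sites does not depend on the library factors. With anti-Foxp3 it was 0.146% (exact binomial 95% interval 0.132 to 0.161%) and 0.111% (0.101 to 0.122%) in WT, and 0.158% (0.136 to 0.183%) and 0.0839% (0.0735 to 0.0953%) in R397W. With IgG it was 0.116% (0.104 to 0.129%) and 0.270% (0.251 to 0.289%) in WT, and 0.208% (0.182 to 0.237%) and 0.101% (0.0894 to 0.114%) in R397W. The genotypes overlapped with either antibody, and Foxp3 and IgG overlapped in either genotype. The intervals cover counting error only and are narrower than the gap between replicates in each group.

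The site with the most cytokine reads differed between libraries. It was the Ifng site 21977 bp upstream in both WT Foxp3 libraries (20.6% and 49.8% of the cytokine reads) and in WT IgG replicate 1 (34.5%). It was the Il21 site in WT IgG replicate 2 (74.4%), R397W IgG replicate 1 (27.6%) and R397W Foxp3 replicate 2 (36.9%). In R397W Foxp3 replicate 1 it was the middle Cd40lg site (31.3%), and in R397W IgG replicate 2 the distal Il2 site (40.5%).

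**Figure D4:**
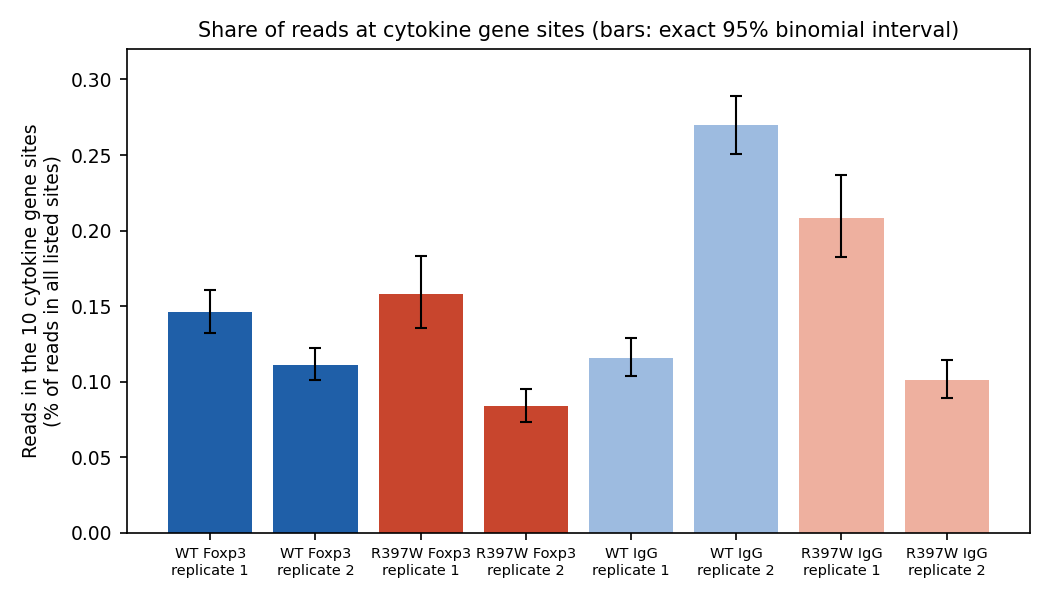
Reads in the 10 cytokine gene sites as a percentage of reads in all listed sites (y axis) in each of the 8 libraries (x axis), with exact 95% binomial intervals. WT IgG replicate 2, at 0.270%, is the highest, and R397W Foxp3 replicate 2, at 0.0839%, is the lowest.

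For the 6 genes without a site, the nearest sites belonged to neighbouring genes. The T helper 2 cytokine genes Il4, Il13 and Il5 lie around Rad50, a DNA repair gene known to hold the locus control region of these cytokines. Both sites within 200 kb of them were eTreg-specific and inside Rad50 (chromosome 11, 53656830 to 53657230 and 53662857 to 53663257), the first being nearest to Il13 (22328 bp) and Il4 (38365 bp) and the second nearest to Il5 (57737 bp). The first had 26.0 and 29.2 for anti-Foxp3 and 10.7 and 0 for IgG in WT cells, and 50.3 and 0 for anti-Foxp3 and 7.44 and 0 for IgG in R397W cells. WT Foxp3 was above WT IgG there without overlap, and the genotypes overlapped. The second had 0.866 and 2.30 for anti-Foxp3 and 0 in both IgG libraries in WT cells, and 31.4 and 0 for anti-Foxp3 and 9.92 and 0 for IgG in R397W cells. Neither differed between genotypes by the test (limma, adjusted p = 1 at both).

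Near Tnf, the tumour necrosis factor gene, the closest site was 4984 bp away at the Ltb promoter printed above (chromosome 17, 35194183 to 35194583, common). It had 147 and 213 for anti-Foxp3 and 158 and 52.2 for IgG in WT cells, and 173 and 206 for anti-Foxp3 and 192 and 139 for IgG in R397W cells. All 8 libraries were covered, and Foxp3 exceeded same-numbered IgG in the replicates numbered 2 and not in those numbered 1. The fitted genotype difference was 0.10 on the log2 scale (SE 0.53; limma, adjusted p = 1). Csf2, which encodes GM-CSF, had its nearest site 95956 bp away toward P4ha2, and Il17a, the gene of the T helper 17 cytokine, had its nearest 178269 bp away inside Paqr8.

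Sites given to none of the 10 genes also lay near those with sites of their own. Of these, the nearest to Il2 was 96947 bp away inside 4932438A13Rik, that to Il21 60182 bp away and given to Cetn4, and that to Cd40lg 29795 bp away inside Arhgef6. Ifng had 1 such site within 200 kb, 187761 bp away with no gene. None of these neighbouring sites was called between genotypes (limma, adjusted p = 1 at each).

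The other genes of cytokine signalling were read from 3 lists. Of 27 other T cell cytokines and ligands, 10 had 22 sites, with 0 called higher and 0 lower in R397W and a median difference of −0.44 on the log2 scale. Of 17 receptors for the 10 cytokines, 6 had 14 sites, with 0 called in either direction and a median of −1.22. Of 20 transcription factors and inhibitors of cytokine genes, 11 had 35 sites, with 0 called in either direction and a median of −1.02. The median over all sites was −0.39. R397W was lower without overlap at 4 of 22, 2 of 14 and 5 of 35 sites of the lists in turn, against 12.6% of all sites, and higher at 0, 0 and 1, against 6.43%.

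Among the ligands, the common site 18995 bp from Fasl, the Fas ligand gene, had the lowest unadjusted p of the 3 lists, 0.0597 (limma, adjusted p = 1). It had 212 and 61.0 for anti-Foxp3 and 75.3 and 25.4 for IgG in WT cells, and 15.8 and 18.0 for anti-Foxp3 and 65.6 and 52.8 for IgG in R397W cells. Both R397W Foxp3 libraries were below the other 6. A site inside Il16, which encodes a chemoattractant of CD4+ cells, had 37.6 and 56.8 in WT Foxp3 and 5.25 and 0 in R397W Foxp3, beside IgG values of 8.59 and 0 in WT and 13.6 and 0 in R397W.

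Among the receptors, a common site inside Il2ra, the high-affinity interleukin 2 receptor chain, had 329 and 568 in WT Foxp3 and 228 and 249.98 in R397W Foxp3. Its IgG values were 138 and 70.7 in WT and 255.8 and 159.7 in R397W, so Foxp3 stood above IgG without overlap in WT and overlapped it in R397W. An eTreg-specific site 7758 bp from Tnfrsf1b, a receptor of TNF, had 151 and 116 in WT Foxp3 and 96.4 and 0 in R397W Foxp3. With IgG the Tnfrsf1b site had 145.9 and 14.1 in WT and 277.7 and 41.9 in R397W, so background there reached the level of Foxp3. Among the transcription factors, an eTreg-specific site inside Rora, which takes part in T helper 17 differentiation, had 78.8 and 56.4 in WT Foxp3 and 16.8 and 0 in R397W Foxp3. Its IgG values were 10.1 and 0 in WT and 49.6 and 89.5 in R397W, so both R397W IgG libraries were above both R397W Foxp3 libraries. A common site inside Bcl6, the repressor that directs follicular helper cells, had 12.1 and 39.1 in WT Foxp3 and 2.63 and 0 in R397W Foxp3, beside IgG values of 0 and 0.498 (WT) and 20.4 and 0 (R397W). These sites were named for the size of their difference among sites whose Foxp3 libraries did not overlap between genotypes. How WT and R397W Foxp3 stand against IgG at them partly follows from that choice. None of these sites passed (limma, adjusted p = 1 at each).

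Over the 8 libraries, the mean log2 value of the 10 sites was most like that of Sec24a (Pearson's r = 0.992), Satb1 (r = 0.985) and Pdcd4 (r = 0.982) among 521 other genes with 3 or more sites. The median r over these genes was 0.839, and 160 of them exceeded 0.9. All genes share the libraries and their uneven coverage, so the values describe likeness across libraries only.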

How the data were processed

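Signal per Foxp3 site was deposited by the authors for 8 CUT&Tag libraries, as read counts that their file names call spike-in normalised. The submitters' processing notes name 2 tools, Bowtie2 (2.5.2) and DiffBind (3.12.0), and list mm10 and dm6 as builds, without saying what each was used for. The calling of sites and any removal of duplicates are not given in the sources used here. Coordinates are taken as mm10. In each library and class, 100% of nonzero values were multiples of 1 step (tolerance 0.01), from which whole reads were recovered. The deposited factors equalled median-of-ratios size factors of each class's own sites (largest deviation 6.87e-08 percent). Such factors rest on the sites with reads in all 8 libraries. These were 21.2% of common, 7.98% of cTreg-specific and 6.86% of eTreg-specific sites. A change shared by most of these sites of a class is therefore removed.

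Sites were given to RefSeq genes (GRCm38.p6). Tests used limma (3.58.1, R 4.3.3; trended variance, moderated, two-sided) on log2(normalised read count + 1) across 5521 sites, with Benjamini-Hochberg adjustment at 0.05. The R397W minus WT comparison of Foxp3 libraries used those 4 libraries, and the other comparisons all 8. Differences on this scale understate weak sites. Alternatives were edgeR (4.0.16) and DESeq2 (1.42.0) on recovered reads, pseudocounts of 0.5 and 5, equal library totals, centring on the common-site median, leaving out the lowest 25% of sites, a replicate block, and leaving out each library. The fitting was tested on simulated counts that did not copy the uneven empty sites of these libraries, so that test does not cover them. Every site of the 10 genes is named, with the nearest other site within 200 kb of each, the 3 genes of highest profile correlation, and, per pathway list, the 2 sites of largest difference among those without overlap. Genes, lists and rules were chosen with earlier results of these data known.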

Additional observations from a re-analysis of the deposited data

How the results depend on the processing

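The R397W minus WT comparison of Foxp3 libraries called 0 sites in limma and 0 under the other settings, except without WT Foxp3 replicate 2 (range 0 to 643 with each library left out). In WT, limma called 4 sites above IgG. This count was 0 with a pseudocount of 5, at equal totals, centred on the common-site median, under the replicate block, in edgeR and in DESeq2, and ranged from 0 to 189 with each library left out. The genotype difference in Foxp3 over IgG gave 0, then 1 under the replicate block and 0 to 182 with each library left out. In the IgG libraries R397W and WT differed at 2 sites, at 1 under the replicate block, at 0 with a pseudocount of 5, at equal totals, centred, in edgeR and in DESeq2, and at 0 to 15 with each library left out. Foxp3 against IgG in R397W gave 0 throughout. No cytokine site was among the calls, other than the Cd40lg site 24699 bp away in the first comparison without WT Foxp3 replicate 2 (−4.07).

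The median R397W minus WT difference over the cytokine sites, −1.32, was 0.37 after centring on the common-site median and −2.31 to 0.20 with each library left out. After centring, which takes less from sparse libraries, 5 sites changed sign. The value became 0.27 at the Il2 promoter and 0.32 at the distal Il2 site, and at Ifng it became 0.43, 0.57 and 1.36 at the sites 34093 and 21977 bp upstream and 20591 bp downstream. On recovered reads the distal Il2 site gave 1.09 in both edgeR and DESeq2, and the Il21 site −0.0718 and −0.0724. With each library left out the values ranged from −3.18 to 0.34 and −4.84 to 2.09 at Il2, from −3.86 to 1.32, −3.63 to 0.13 and −0.94 to 0.27 at the Ifng sites 34093 and 28037 bp upstream and 20591 bp downstream, from −1.26 to 5.06 at Il21, and from −4.93 to 0.93 at the Cd40lg site 1317 bp away. The cause was not tested. The filter on low values removed 3 of the 10 sites. The share of reads in WT Foxp3, 0.129%, was 0.157% over common sites only. The number of sites given to the 10 genes was 10, and 2 with a limit of 10 kb or 20 when any site within 100 kb counted.

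The titles give Foxp3 and IgG libraries of a genotype a shared sample name and number, but the labels do not say whether these came from the same cells, or whether a number links the genotypes. The replicate 1 minus replicate 2 difference correlated at 0.0375 between WT Foxp3 and WT IgG, at 0.135 between R397W Foxp3 and R397W IgG, at 0.167 between WT and R397W Foxp3, and at 0.0873 to 0.161 between the other groups. For Foxp3 minus IgG within a genotype, the replicate block was the shared sample name and number. For every comparison between genotypes, the difference in Foxp3 over IgG included, it was the replicate number alone. The replicate block left 0 calls in the Foxp3 comparison, and changed no call at a cytokine site. Empty sites limit these values: 5 and 6 of the 10 sites had no reads in replicates 2 of WT and R397W Foxp3, which held 394196 and 281252 reads, against 0 and 1 in replicates 1, which held 279737 and 111274. The cause of the empty sites was not tested.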

Other observations

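Within the Ifng locus, reads at the site 21977 bp upstream were set against those at the site 20591 bp downstream in the same library, so that the library factor cancels. This split was chosen after the values were seen. The upstream site held 63.6% of the reads at the pair (exact binomial 95% interval 54.8 to 71.8%) and 59.9% (54.7 to 65.0%) in WT Foxp3 replicates 1 and 2, and 46.3% (32.6 to 60.4%) and 50% (39.8 to 60.2%) in R397W Foxp3. In IgG it held 72.1% and 95% in WT, the latter of 20 reads in all, and 64.7% and 59.4% in R397W. Both WT Foxp3 libraries were above both R397W Foxp3 libraries, and the same order held in IgG. In each genotype both IgG libraries were above both Foxp3 libraries. The upstream site was also the one at which R397W Foxp3 was lower without overlap, so the order in Foxp3 partly follows from the choice. No share over other pairs of sites is given to set beside it. The intervals of R397W and WT Foxp3 overlapped.

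Coverage differed between replicates at the cytokine sites and over all sites. Of the 10 sites, 5 had no reads in WT Foxp3 replicate 2 and 6 in each of R397W Foxp3, WT IgG and R397W IgG replicate 2, against 0, 1, 2 and 3 in the replicates numbered 1. Over all sites, the shares without reads were 44.4%, 55.5%, 66.8% and 60.1% in the replicates numbered 2 and 3.13%, 15.7%, 27.0% and 18.9% in those numbered 1, in the order WT Foxp3, R397W Foxp3, WT IgG and R397W IgG, so the counts at the 10 sites were near those of all sites. Over covered cytokine sites the median number of reads was 48 in WT Foxp3 replicate 2 and 50 in R397W Foxp3 replicate 2. Over all covered sites it was 74 and 77. None of the covered cytokine sites of these 2 libraries held 1 to 5 reads, against 5.90% and 7.66% of all covered sites. In WT IgG replicate 2 the median was 99 reads over covered cytokine sites and 103 over all covered sites.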
